A study of Platycodon grandiflorus with 6 samples.

Results

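The enzymes that build and break down starch were followed in leaves and callus of Platycodon grandiflorus, the balloon flower, whose root is used in traditional medicine. Members were chosen by name alone: a unigene, that is a contig of the assembled transcriptome, was taken when its best SwissProt match carried the name of a starch synthase, a glucose-1-phosphate adenylyltransferase, a branching enzyme, an isoamylase, an alpha- or beta-amylase, a glucan water dikinase, a phosphoglucan phosphatase, an alpha-glucan phosphorylase or a 4-alpha-glucanotransferase. This gave 383 of 152777 unigenes, of which 73371 had any SwissProt name. A further 36 unigenes with such a name were left out because their best match in the NR protein database came from Arachis (peanut). Contigs that the assembly placed under one CL number were also summed to a cluster, and the 383 unigenes fell into 122 of 94586 clusters, 84 of them single unigenes. At 0 counts in all 6 libraries were 27 of the 383 unigenes and 10 of the 122 clusters, and 1 member of those (an alpha-amylase/trypsin inhibitor) is no starch enzyme but carries the searched words. Most of the members had their best NR match in an asterid, with 88 in Cynara cardunculus var. scolymus and 76 in Actinidia chinensis var. chinensis, and the median member was 2835 bp long, against 1042 bp for all unigenes.

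Callus replicates 4, 5 and 6 came from stem pieces with nodes, grown on MS medium with 1.0 mg/L naphthaleneacetic acid (NAA, an auxin) and 0.5 mg/L 6-benzylaminopurine (6-BA, a cytokinin) for 50 days at 25 ± 1 °C, with 12 h of light a day at 1600 lx. Leaf replicates 1, 2 and 3 came from the original plants. The study's methods describe the replicates as independent, and neither the genotype nor the age of the plants was given in the sources used here. The comparison of callus with leaf therefore joins tissue, medium, hormones and growth conditions, which cannot be told apart.

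Starch is stored in plastids as granules of amylose and branched amylopectin. ADP-glucose pyrophosphorylase (AGPase, the glucose-1-phosphate adenylyltransferase of the names) makes the sugar donor ADP-glucose, starch synthases lengthen the glucan chains, branching enzymes add branches, and isoamylases of the ISA1 and ISA2 types trim them so that the granule can form. In leaves, starch made by day is broken down at night: water dikinases put phosphate on the granule surface, beta-amylases and isoamylase 3 cut the loosened chains, phosphatases remove the phosphate again, and maltose and glucose leave the plastid to be used in the cytosol by the glucanotransferase DPE2 and a phosphorylase. In tissues that receive sugar from elsewhere, the plastid can import glucose 6-phosphate and keeps the starch as a store.

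The libraries held between 18546158 and 19444638 expected counts in callus and between 17963458 and 18669613 in leaf. Correlations of log counts across clusters, which are not independent replicates, lay between 0.913 and 0.956 among callus libraries and between 0.83 and 0.867 among leaf libraries. Unigenes with any Arachis match held 0.186%, 0.178% and 0.178% of the counts of callus replicates 4 to 6, against 1.17%, 0.347% and 0.25% in leaf replicates 1 to 3, so that leaf replicate 1 stood apart. The labelled leaf tissue carried its markers: 138 unigenes named as Rubisco small subunit, chlorophyll a-b binding proteins, photosystem I subunits or oxygen-evolving enhancers summed to between 12520 and 12990 FPKM in callus libraries and between 33930 and 43010 FPKM in leaf libraries. FPKM is the number of fragments scaled to contig length and to the mapped fragments of the library, and it is the scale of every level given here. Callus was thus lower in photosynthesis transcripts but not without them. In 26 of 45 tested clusters of these markers the fall passed the test, against 1 rise, where 20.8% of all clusters tested fell and 22.0% rose. The part of this difference in the results on starch enzymes was not tested. The 59 unigenes of the list for dividing cells (histone H4, cyclin B and proliferating cell nuclear antigen) summed to 291.5 to 468.4 FPKM in callus libraries and 295.6 to 399.4 FPKM in leaf libraries, which overlapped. Of this list's 21 tested clusters 8 were called higher and 3 lower, beside the same 22.0% and 20.8% of all clusters. Within it, histone H4 overlapped between the tissues, while cyclin B and proliferating cell nuclear antigen were higher in each callus library than in any leaf library. In such whole-tissue samples, fewer cells of a type and less RNA per cell cannot be told apart.

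Starch enzyme transcripts were lower in callus than in leaf. The 383 unigenes summed to 617.5, 554.9 and 616.0 FPKM in callus replicates 4, 5 and 6, against 1289, 1376 and 1305 FPKM in leaf replicates 1, 2 and 3. As a share of all expected counts they took 0.168%, 0.154% and 0.171% in callus and 0.342%, 0.364% and 0.358% in leaf. Both sides of the pathway were lower. The enzymes of synthesis averaged 271.0 ± 16.3 FPKM in callus and 612.4 ± 38.7 FPKM in leaf, and those of breakdown 325.1 ± 24.5 FPKM in callus and 710.8 ± 9.74 FPKM in leaf (SD, n = 3 each). The ratio of synthesis to breakdown was 0.774, 0.854 and 0.879 in callus and 0.841, 0.914 and 0.829 in leaf, and here the tissues overlapped.

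Clusters were compared by edgeR's quasi-likelihood test on the summed counts of all their contigs, and a cluster was called at a Benjamini-Hochberg adjusted p of 0.05 or less, which is the adjusted p meant throughout. Of the 122 starch clusters 85 had enough counts to be tested. Of these, 10 were called higher in callus, or 11.8%, where 22.0% of all 32898 clusters tested were called higher, and 37 were called lower, or 43.5%, where 20.8% of all clusters were called lower. The median log2 fold change, given throughout as callus over leaf, was -1.31 over the starch clusters and -0.05 over all clusters tested. On counts scaled to the library total, the callus libraries lay wholly above the leaf libraries in 19 starch clusters and wholly below them in 43, while 31.1% and 29.1% of all tested clusters did so. At the stricter adjusted p of 0.001 with at least a 2-fold change, which 2.48% of all clusters passed in either direction, 0 starch clusters rose and 4 fell. DESeq2, which tested 98 of the clusters, called 14 higher and 44 lower at an adjusted p of 0.05 (18.4% and 17.6% of all 48457 it tested), and 6 higher and 22 lower at the stricter threshold (17.2% in either direction). Of the 47 calls 21 were kept without each of the 6 libraries in turn. Leaving out callus replicate 6 cost 25 calls, callus replicate 5 cost 20, callus replicate 4 cost 8, leaf replicate 2 cost 9, leaf replicate 1 cost 8 and leaf replicate 3 cost 3, with adjusted p between 0.0502 and 0.147 for the lost calls.

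A CL number does not always hold a single gene. Of the 122 clusters, 9 also held contigs named as another protein, and in these the text gives the level and the fold change of the starch-named contigs alone, and names the cluster's own value beside it where the call differs. With starch-named contigs only, 83 clusters were tested. Of these, 9 were called higher, or 10.8%, where 22.0% of all 32907 clusters tested were called higher. Another 39 were called lower, or 47.0%, where 20.8% of all clusters were called lower. In their call, 4 clusters differed from the whole-cluster sum. Contig by contig, 245 of the 383 unigenes were tested, and 12 were called higher and 60 lower, against 14.2% and 12.3% of all 66307 unigenes. In 6 clusters some contigs were called higher and others lower. Reads that match several contigs were shared among them by RSEM before deposition, so values of single contigs of a cluster, and of separate unigenes with the same name, are less certain than their sums.

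For each of 14 enzyme groups the counts of all member unigenes were summed and fitted together with the remaining unigenes. Of the 14 groups 10 were called lower and 0 higher in callus, in a fit that called 12.3% of its 66076 rows lower and 14.2% higher. At an unadjusted p under 0.05 there were 12 groups, and the share of all rows at that threshold is not given. DESeq2 called 9 groups lower and 0 higher, where in its fit of single unigenes it called 16.1% lower and 15.6% higher. The change was largest in the phosphoglucan phosphatases, with 34.4 ± 3.52 FPKM in callus and 137.9 ± 14.9 FPKM in leaf (log2 fold change -2.29, SE 0.200, adjusted p = 0.004). In FPKM the callus libraries were below all leaf libraries in 12 of 14 groups. The exceptions were the isoamylases 1 and 2 and the alpha-glucan phosphorylases. Of all clusters tested, 29.1% lay wholly below on counts scaled to the library total. That share is on another scale, and none is given for sums over as many contigs as these groups hold. The calls of alpha-glucan water dikinase and phosphoglucan phosphatase were kept without each library, while the other 8 were lost without callus replicate 6, with adjusted p between 0.0527 and 0.151.

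**Figure D1:**
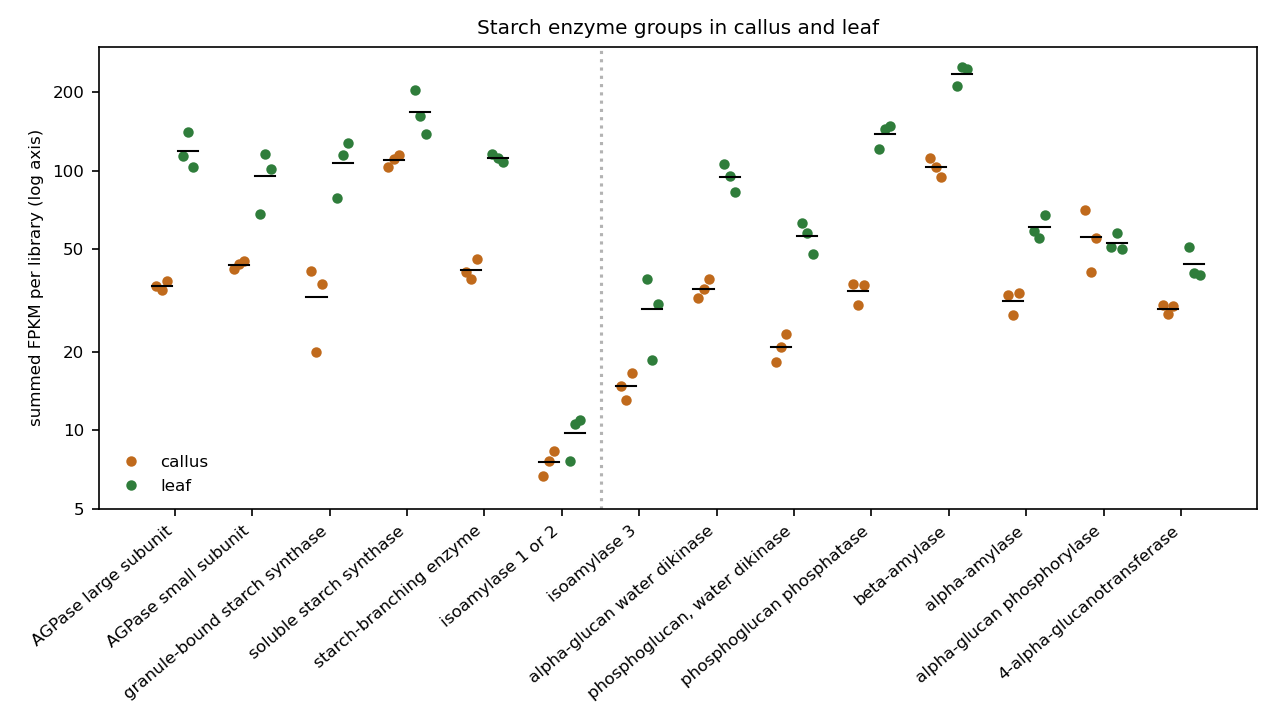
Summed FPKM of the member unigenes of each enzyme group in each library, on a log axis, with callus (orange) left of leaf (green) and a bar at the mean of the 3 libraries; the dotted line separates groups of synthesis, left, from groups of breakdown, right. The callus points lie below the leaf points in every group but isoamylase 1 or 2 and alpha-glucan phosphorylase, where the tissues overlap.

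The order of the groups differed between the tissues. In callus the soluble starch synthases came first, with 109.7 ± 6.08 FPKM, followed by the beta-amylases with 103.4 ± 8.71 FPKM, and the 2 groups overlapped. In leaf the beta-amylases came first, with 236.1 ± 20.6 FPKM, followed by the soluble starch synthases with 168.8 ± 33.3 FPKM and the phosphoglucan phosphatases with 137.9 ± 14.9 FPKM. Within the starch total, soluble starch synthases took 16.7% to 20.0% in callus and 10.7% to 15.9% in leaf. Alpha-glucan phosphorylases took 7.33% to 11.4% in callus and 3.83% to 4.18% in leaf, and they ranked at place 3 in callus and at place 11 in leaf. Phosphoglucan phosphatases took 5.46% to 5.92% in callus and 9.38% to 11.4% in leaf.

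AGPase is made of small subunits, which carry most of the catalysis, and large subunits, which set how the enzyme responds to metabolites. Both were lower in callus. The large subunits summed to 35.98, 34.65 and 37.52 FPKM in callus, against 113.7, 141.4 and 103.5 FPKM in leaf (log2 fold change -1.59, SE 0.197, adjusted p = 0.007, and 0.0549 without callus replicate 6). The small subunits summed to 41.83, 43.80 and 44.78 FPKM in callus, against 68.19, 116.1 and 101.3 FPKM in leaf (log2 fold change -1.22, SE 0.265, adjusted p = 0.022). This call was lost without leaf replicate 3 and without callus replicates 4, 5 or 6, with adjusted p between 0.0511 and 0.102. A single small-subunit cluster, CL7147, held 93.8% to 99.5% of the small-subunit FPKM in callus libraries and 98.7% to 99.9% in leaf libraries. It had 41.63, 41.09 and 43.18 FPKM in callus and 67.31, 116.0 and 100.6 FPKM in leaf (log2 fold change -1.32, SE 0.246, adjusted p = 0.0082).

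The large-subunit genes moved in both directions. Cluster CL5257, whose most abundant contig is named after large subunit 3 of potato, had 25.26, 22.63 and 25.57 FPKM in callus over its 14 member contigs, against 74.62, 121.6 and 93.21 FPKM in leaf (log2 fold change -1.95, SE 0.179, adjusted p = 0.0010). Its libraries did not overlap, and the call held without each of them. Of its contigs 7 are named large subunit 1, and these had 3.84, 0.94 and 4.38 FPKM in callus, against 65.54, 43.99 and 14.02 FPKM in leaf. The name large subunit 1 therefore occurs in clusters of both directions. In contrast, CL5667, named after large subunit 1 of potato, had 6.39, 8.60 and 7.31 FPKM in callus and 2.98, 1.36 and 3.89 FPKM in leaf (log2 fold change 1.65, SE 0.411, adjusted p = 0.0212). That rise was lost without callus replicate 5 or 6, with adjusted p of 0.0704 and 0.0626. A single unigene named after large subunit 2 of potato, Unigene26935, had 1.80, 2.91 and 3.89 FPKM in callus and 0.07, 0.37 and 0.17 FPKM in leaf (log2 fold change 3.68, SE 0.711, adjusted p = 0.0092). The libraries of the tissues did not overlap in either of these genes. As a share of the large-subunit FPKM, CL5667 held 17.8%, 24.8% and 19.5% in callus, against 2.62%, 0.764% and 3.76% in leaf.

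Within CL5257 the leaf libraries differed in which contigs they carried. Contig9 had 15.23, 15.95 and 12.77 FPKM in callus, against 3.23, 55.09 and 54.74 FPKM in leaf. Contig3 had 0.74, 0.00 and 0.00 FPKM in callus, against 46.16, 0.00 and 7.24 FPKM in leaf. Contig12 had 2.53, 0.24 and 3.66 FPKM in callus, against 6.95, 39.64 and 5.61 FPKM in leaf. Contig3 was thus the most abundant contig of the cluster in leaf replicate 1 and Contig9 in the other leaf libraries, with Contig12 next to it in leaf replicate 2, while none of the 3 contigs passed the test on its own. The same unevenness was general among the members. Among unigenes with at least 2 FPKM in a tissue, the median coefficient of variation between libraries was 23.8% over 79 unigenes in callus and 59.3% over 133 unigenes in leaf. A single library held more than 80% of the tissue's FPKM in 0 of these unigenes in callus and 16 in leaf. Summed to clusters the coefficients were 13.1% over 45 clusters in callus and 34.7% over 60 clusters in leaf.

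**Figure D2:**
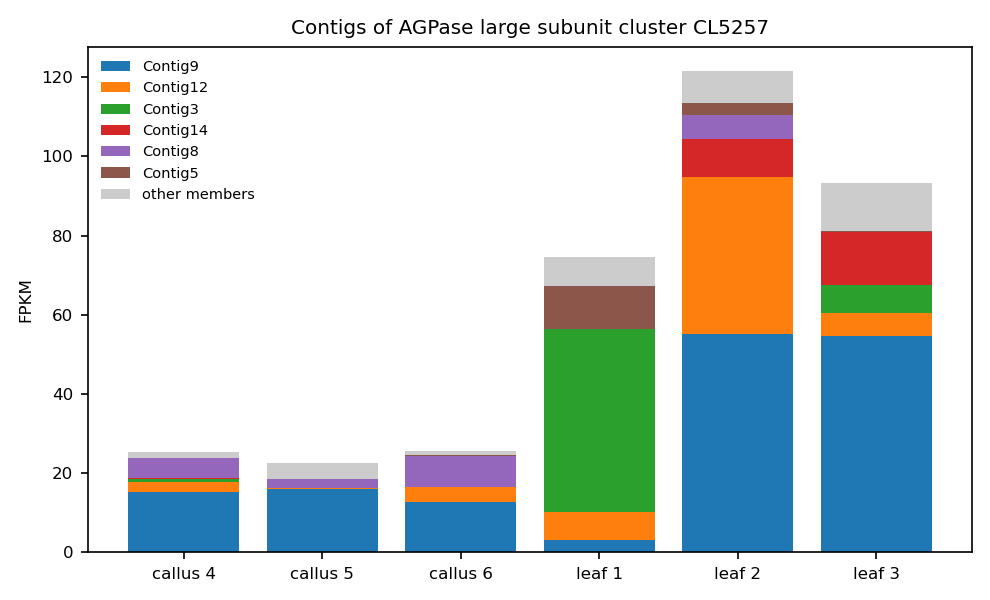
FPKM of the member contigs of AGPase large subunit cluster CL5257, stacked in each library, callus left of leaf; the 6 most abundant contigs have a colour each and the other members are grey. Contig3 makes up most of leaf 1 at 46.16 FPKM, and Contig9 is the largest in leaf 2 and leaf 3, at 55.09 and 54.74 FPKM.

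Both the granule-bound and the soluble starch synthases were called lower, and whether their falls differed in size was not tested. Granule-bound starch synthases summed to 41.13, 20.07 and 36.73 FPKM in callus, against 78.44, 114.8 and 128.3 FPKM in leaf (log2 fold change -1.74, SE 0.353, adjusted p = 0.019). The call was lost without callus replicate 5 or 6, with adjusted p of 0.0591 and 0.0817. Granule-bound starch synthase 1, which makes amylose, was represented mainly by Unigene26969, with 32.02, 11.32 and 26.38 FPKM in callus and 32.30, 78.39 and 91.52 FPKM in leaf. The lowest leaf library was close to the highest callus library, and the difference missed the threshold (log2 fold change -1.62, SE 0.549, adjusted p = 0.055). CL5288, named after granule-bound starch synthase 2 of potato, a starch synthase II that works on amylopectin, gave a steadier contrast. It had 8.43, 7.93 and 9.66 FPKM in callus, against 28.79, 31.77 and 31.74 FPKM in leaf (log2 fold change -1.98, SE 0.135, adjusted p = 0.00055), and its call was kept without each library. It was among the 4 clusters that passed the stricter threshold.

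Soluble starch synthases, the group with the most contigs (106 unigenes), summed to 103.1, 111.1 and 115.0 FPKM in callus, against 204.7, 162.7 and 139.0 FPKM in leaf. The fall was small (log2 fold change -0.54, SE 0.152, adjusted p = 0.047) and was lost without any one library except leaf replicate 3, with adjusted p between 0.0849 and 0.151. Of 9 clusters 5 were called lower and 1 higher, where 20.8% and 22.0% of all clusters tested were so called. Starch synthase 1, which adds short chains, fell in CL2643, with 20.83, 17.65 and 19.99 FPKM in callus and 57.99, 49.91 and 35.62 FPKM in leaf (log2 fold change -1.47, SE 0.176, adjusted p = 0.0022). CL3100 and CL6885 were also called lower, with log2 fold changes of -0.90 (SE 0.190) and -0.96 (SE 0.152), the first not without callus replicate 6 (adjusted p = 0.0564). The most abundant contig of each is named after starch synthase 4, which starts new granules in Arabidopsis. Over all clusters, however, the 41 unigenes with this name had 32.76, 40.66 and 42.58 FPKM in callus, against 38.82, 35.34 and 24.71 FPKM in leaf, which overlapped. The falls of these clusters are thus not a fall of the name as a whole. CL3100 averaged 26.2 FPKM in callus and 43.0 FPKM in leaf, and CL6885 averaged 7.96 FPKM in callus and 16.4 FPKM in leaf. CL2672, labelled by a contig named after starch synthase 3, was not called, with 27.84, 26.24 and 28.84 FPKM in callus and 53.51, 31.13 and 35.11 FPKM in leaf (log2 fold change -0.30, SE 0.157, adjusted p = 0.171). Over all clusters, the 25 unigenes named soluble starch synthase 3 averaged 16.4 FPKM in callus and 48.2 FPKM in leaf. The 19 named starch synthase 3 averaged 25.4 FPKM in callus and 35.1 FPKM in leaf. Neither sum overlapped between the tissues, and sums by name were not tested.

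One soluble synthase cluster ran the other way. CL91, whose most abundant contig is named after starch synthase 3a of rice, had 20.62, 26.39 and 28.15 FPKM in callus, against 10.79, 10.98 and 14.13 FPKM in leaf. It has 38 member contigs, and only 3 unigenes carry the 3a name. Those 3 had 5.03, 7.30 and 8.42 FPKM in callus and 0.33, 1.24 and 2.27 FPKM in leaf, so most of the cluster's level lay on other contigs. The callus values of the cluster all lay above the leaf values (log2 fold change 0.97, SE 0.139, adjusted p = 0.0037), and the call was kept without each library. The member contigs of CL91 held 17.1%, 20.0% and 18.8% of the soluble synthase FPKM in callus, against 5.05%, 5.75% and 6.75% in leaf. Part of the rise lay in Contig34, with 5.03, 7.30 and 7.51 FPKM in callus and 0.33, 1.18 and 0.77 FPKM in leaf. In CL7820 only 2 of 7 contigs are named after starch synthase 4, and these had 5.58, 4.21 and 4.22 FPKM in callus and 5.20, 3.85 and 8.88 FPKM in leaf, which overlapped.

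Branching enzymes summed to 40.78, 38.29 and 45.67 FPKM in callus, against 116.0, 111.5 and 108.4 FPKM in leaf (log2 fold change -1.47, SE 0.182, adjusted p = 0.007, and 0.0527 without callus replicate 6). The leaf level came mostly from a pair of clusters that were low in callus. CL364, named after branching enzyme I of pea, had 17.14, 9.86 and 12.99 FPKM in callus and 65.71, 71.39 and 56.69 FPKM in leaf (log2 fold change -2.44, SE 0.293, adjusted p = 0.0022). CL5715, named after branching enzyme 3 of Arabidopsis, had 4.12, 4.57 and 5.47 FPKM in callus and 29.87, 24.27 and 25.21 FPKM in leaf (log2 fold change -2.12, SE 0.188, adjusted p = 0.0010). Both calls were kept without each library. CL1194, named after branching enzyme 1 of potato and singled out here after its values were seen, had 8.10, 9.56 and 10.85 FPKM in callus, against 4.51, 2.64 and 4.13 FPKM in leaf (log2 fold change 1.16, SE 0.229, adjusted p = 0.0096), and this rise too was kept without each library. Of 19 branching enzyme clusters 3 were called lower, 1 higher and 8 were not called, and 7 had too few counts. Among all clusters tested 20.8% were called lower and 22.0% higher, so the number of falls alone does not set this group apart. The share of CL1194 in the branching enzyme FPKM was 19.9%, 25.0% and 23.8% in callus and 3.89%, 2.37% and 3.81% in leaf.

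**Figure D3:**
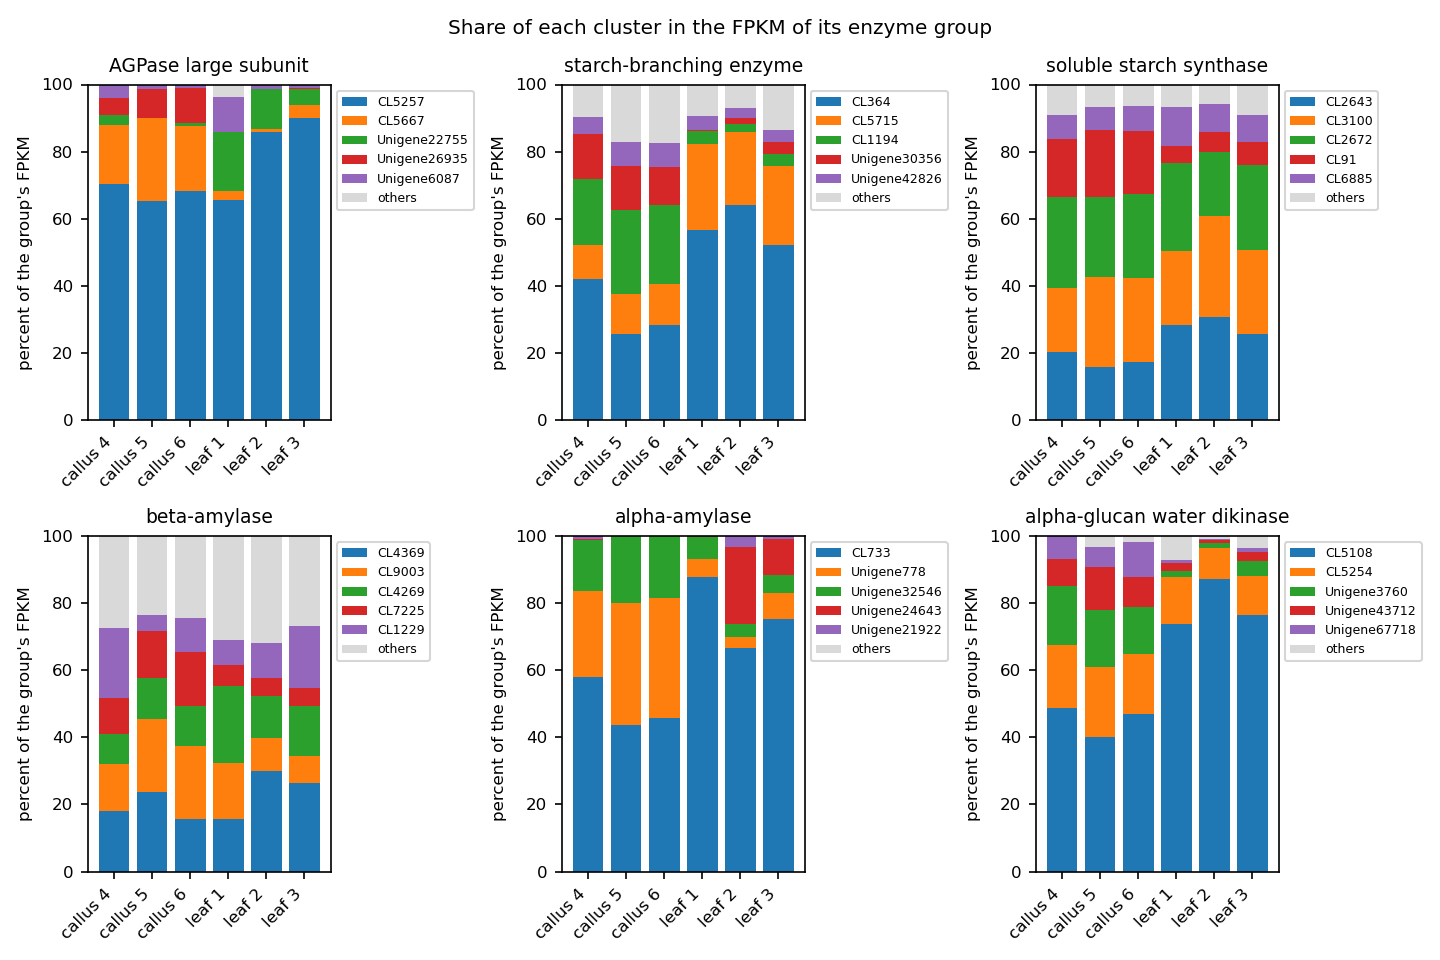
Percent of the FPKM of 6 enzyme groups that each cluster held in each library, callus left of leaf, over the starch-named contigs only; the 5 clusters with the highest mean share have a colour each and the others are grey. CL5667 in the AGPase large subunits, CL1194 in the branching enzymes, CL91 in the soluble synthases and Unigene778 in the alpha-amylases take larger shares in every callus library than in any leaf library.

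The isoamylases that trim amylopectin were the least abundant group, with 7.55 ± 0.812 FPKM in callus and 9.74 ± 1.82 FPKM in leaf, and they were not called (log2 fold change -0.25, SE 0.228, adjusted p = 0.44). Most of it was the ISA1-named cluster CL10556, chosen for naming after its values were seen, with 6.04, 7.05 and 7.58 FPKM in callus and 5.77, 6.90 and 6.65 FPKM in leaf, which overlapped (log2 fold change -0.02, SE 0.182). The ISA2-named contig of CL2313 had 0.34, 0.34 and 0.42 FPKM in callus and 1.09, 0.80 and 0.90 FPKM in leaf (log2 fold change -1.42, SE 0.360, adjusted p = 0.022). That call was lost without any single callus replicate, with adjusted p between 0.0807 and 0.108. The other 4 contigs of CL2313 include the chloroplast protein PALE CRESS.

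Breakdown begins with the water dikinases. Alpha-glucan water dikinases, which phosphorylate the granule first, summed to 32.34, 35.00 and 38.14 FPKM in callus, against 105.8, 95.65 and 82.93 FPKM in leaf (log2 fold change -1.56, SE 0.161, adjusted p = 0.005). The call was kept without each library. Cluster CL5108, named after the R1 protein of potato, had 15.72, 14.01 and 17.89 FPKM in callus, against 77.96, 83.48 and 63.34 FPKM in leaf (log2 fold change -2.04, SE 0.154, adjusted p = 0.00066), and it passed the stricter threshold. It held 40.03% to 48.61% of the group in callus libraries and 73.72% to 87.28% in leaf libraries. Phosphoglucan, water dikinases, which act on chains that already carry phosphate, summed to 18.36, 20.97 and 23.45 FPKM in callus, against 62.78, 57.34 and 47.94 FPKM in leaf (log2 fold change -1.21, SE 0.167, adjusted p = 0.008). This call was lost without callus replicate 5 or 6, with adjusted p of 0.0536 and 0.0568. Its main unigene, Unigene8747, had 13.00, 12.51 and 13.16 FPKM in callus and 28.64, 32.05 and 15.70 FPKM in leaf (log2 fold change -1.08, SE 0.276, adjusted p = 0.0231), and that call held only without leaf replicate 3, with adjusted p between 0.0555 and 0.102 without any other library. The dikinase-named contig of CL13493 was at 0 in every library, and the reads of that cluster came from kinesin and other contigs.

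Phosphoglucan phosphatases remove the phosphate that the dikinases add. Main clusters of each of the 3 kinds found here were called lower in callus. LSF2 had 19.32, 21.12 and 22.99 FPKM in callus over CL5681, against 41.39, 49.19 and 53.88 FPKM in leaf (log2 fold change -1.74, SE 0.141, adjusted p = 0.00078). The 8 contigs of CL10584 that are named after DSP4, the SEX4 phosphatase of Arabidopsis, had 9.71, 4.04 and 6.62 FPKM in callus and 33.46, 49.05 and 47.94 FPKM in leaf (log2 fold change -2.55, SE 0.373, adjusted p = 0.0038). The 45 contigs of CL10584 together were also called lower, but with a log2 fold change of -0.70 (SE 0.156), because they include an initiation factor and a poly(A)-binding protein interactor. LSF1, a relative that is needed for starch breakdown in Arabidopsis, was spread over 22 unigenes in 22 clusters. Summed over these, LSF1 names had 7.45, 5.13 and 6.58 FPKM in callus and 44.73, 40.74 and 35.73 FPKM in leaf.

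The LSF1 unigenes differed in direction. The LSF1-named contig of CL1662, a cluster that otherwise holds carbonic anhydrases, had 1.67, 1.46 and 2.26 FPKM in callus and 12.60, 14.39 and 9.35 FPKM in leaf (log2 fold change -2.85, SE 0.268, adjusted p = 0.0011). Unigene15080 had 0.05, 0.00 and 0.00 FPKM in callus and 5.35, 6.88 and 4.29 FPKM in leaf (adjusted p = 0.0028). Unigene510 had 0.33, 0.00 and 0.00 FPKM in callus and 10.26, 1.42 and 7.85 FPKM in leaf (adjusted p = 0.0334), a call lost without leaf replicates 1 or 3 and without callus replicates 5 or 6, with adjusted p between 0.0599 and 0.0958. The reverse was seen in Unigene6690, with 2.40, 2.23 and 2.64 FPKM in callus and 0.00, 0.00 and 0.03 FPKM in leaf (adjusted p = 0.0032). The first 3 of these unigenes were thus high in leaf, and Unigene6690 was nearly at 0 there. Of the 26 phosphatase clusters 9 were called lower, 2 higher and 12 had too few counts to be tested. The shares over all clusters tested were 20.8% lower and 22.0% higher.

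Beta-amylases release maltose from the chain ends, and some family members have lost this activity. The group summed to 112.0, 103.6 and 94.63 FPKM in callus, against 212.4, 249.7 and 246.1 FPKM in leaf (log2 fold change -1.17, SE 0.1704, adjusted p = 0.009). The call was lost without callus replicate 5 or 6, with adjusted p of 0.0537 and 0.063. Of 19 clusters 7 were called lower and 1 higher, and 6 had too few counts, where 20.8% and 22.0% of all clusters tested were called. BAM1, an active plastid enzyme, was the most abundant: CL4369 had 20.22, 24.43 and 14.89 FPKM in callus over its starch-named contigs and 33.03, 75.06 and 65.12 FPKM in leaf (log2 fold change -1.68, SE 0.374, adjusted p = 0.0147, but 0.052 and 0.0677 without callus replicates 4 and 6). CL11780, matched to beta-amylase 1 of rice, had 4.46, 5.20 and 4.81 FPKM in callus and 17.89, 15.28 and 15.50 FPKM in leaf (log2 fold change -1.80, SE 0.171, adjusted p = 0.0011). The inactive BAM4, which is known to be needed for leaf starch breakdown in Arabidopsis, had 10.20, 12.68 and 11.13 FPKM in callus and 48.53, 31.55 and 36.37 FPKM in leaf over the 20 named contigs of CL4269 (log2 fold change -1.98, SE 0.182, adjusted p = 0.0010).

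CL1356, matched to a beta-amylase of white clover, had 8.94, 7.87 and 6.59 FPKM in callus and 15.74, 21.83 and 32.05 FPKM in leaf (log2 fold change -1.56, SE 0.303, adjusted p = 0.0092, and 0.0502 without callus replicate 6). BAM3, the other main maltose-forming enzyme of Arabidopsis leaves, was uneven: CL1229 had 23.60, 4.96 and 9.53 FPKM in callus and 16.12, 26.59 and 45.30 FPKM in leaf, which overlapped (log2 fold change -1.23, SE 0.688, adjusted p = 0.194). Among its contigs 1 was called higher and 3 lower. The BAM7 and BAM8 types, which in Arabidopsis are nuclear proteins with a DNA-binding domain, were not called. CL7225, the BAM8 cluster, had 11.77, 14.47 and 15.19 FPKM in callus and 13.28, 12.89 and 13.63 FPKM in leaf (log2 fold change -0.02, SE 0.144). CL9003, the BAM7 cluster, had 15.67, 22.67 and 20.67 FPKM in callus and 35.69, 24.31 and 19.65 FPKM in leaf (log2 fold change -0.49, SE 0.234, adjusted p = 0.137). The inactive BAM9 of Unigene29879 overlapped as well, with 12.94, 6.16 and 6.70 FPKM in callus and 19.90, 10.82 and 7.45 FPKM in leaf.

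The beta-amylase that rose was BAM2, an enzyme of weak activity in Arabidopsis. CL13321 had 2.76, 3.20 and 4.31 FPKM in callus and 0.98, 1.29 and 2.05 FPKM in leaf (log2 fold change 1.66, SE 0.416, adjusted p = 0.0216). The call was lost without leaf replicate 2 and without callus replicates 5 or 6, with adjusted p between 0.0514 and 0.0861. Its contigs went apart. Contig2 of CL13321 had 2.76, 3.20 and 4.31 FPKM in callus and 0.41, 0.57 and 0.77 FPKM in leaf, while Contig1 was at 0 in the callus libraries and had 0.57, 0.72 and 1.28 FPKM in leaf. Unigene56771, a single BAM1-named unigene with one of the largest fitted falls, had 0.06, 0.08 and 0.08 FPKM in callus and 1.16, 17.97 and 0.72 FPKM in leaf. Leaf replicate 2 carried most of that level, and the call (adjusted p = 0.019) was lost without any single callus replicate, with adjusted p between 0.0702 and 0.0812.

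Alpha-amylases cut within chains. As a group they had 33.19, 27.75 and 33.95 FPKM in callus and 58.51, 55.20 and 67.65 FPKM in leaf (log2 fold change -1.14, SE 0.200, adjusted p = 0.013), a call lost without callus replicate 5 or 6, with adjusted p of 0.063 and 0.0711. The main cluster of the plastid enzyme AMY3 fell: CL733 had 19.22, 12.14 and 15.57 FPKM in callus and 51.44, 36.76 and 50.96 FPKM in leaf (log2 fold change -1.81, SE 0.251, adjusted p = 0.0033). AMY2, whose product is thought to be cytosolic, rose: Unigene778 had 8.58, 10.07 and 12.14 FPKM in callus and 3.06, 1.81 and 5.19 FPKM in leaf (log2 fold change 1.52, SE 0.415, adjusted p = 0.0285). This rise was lost without leaf replicate 1 and without any single callus replicate, with adjusted p between 0.0566 and 0.0926. Unigene778 made up 25.9%, 36.3% and 35.8% of the alpha-amylase FPKM in callus, against 5.23%, 3.28% and 7.67% in leaf. Other AMY3-named unigenes did not share one direction. Unigene32546, described after its values were seen, had 5.02, 5.54 and 6.24 FPKM in callus and 3.79, 2.21 and 3.62 FPKM in leaf, and its callus libraries were all higher although it was not called (log2 fold change 0.71, SE 0.263, adjusted p = 0.0706). Unigene24643 was at 0.04, 0.00 and 0.00 FPKM in callus and at 0.22, 12.59 and 7.19 FPKM in leaf (adjusted p = 0.0132, and between 0.0581 and 0.0628 without any single callus replicate).

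Isoamylase 3, the debranching enzyme of starch breakdown, had 14.87, 13.07 and 16.60 FPKM in callus over its 8 unigenes, against 38.39, 18.66 and 30.60 FPKM in leaf. The tissues did not overlap, and the difference missed the threshold (log2 fold change -0.89, SE 0.285, adjusted p = 0.065). Its main cluster, CL12715, held retrotransposon and other contigs as well, and its 6 isoamylase contigs had 14.23, 12.84 and 16.33 FPKM in callus and 35.18, 14.07 and 27.52 FPKM in leaf (adjusted p = 0.0798). The isoamylase contig of CL7657 had 0.25, 0.21 and 0.21 FPKM in callus and 3.18, 1.21 and 1.15 FPKM in leaf (log2 fold change -3.16, SE 0.559, adjusted p = 0.0069), whereas the whole cluster, dominated by an unnamed contig, was not called.

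In the cytosol, alpha-glucan phosphorylase of the H type and the glucanotransferase DPE2 handle the glucose units of exported maltose. Neither passed the test. CL2309, the H-type phosphorylase, had 68.81, 39.91 and 53.87 FPKM in callus and 48.93, 49.56 and 47.63 FPKM in leaf (log2 fold change -0.04, SE 0.243, adjusted p = 0.909). The callus libraries lay on both sides of the leaf libraries, and the sign of the difference turned under several alternatives. CL339, the DPE2 cluster, had 16.80, 14.26 and 17.96 FPKM in callus and 21.65, 17.20 and 23.08 FPKM in leaf, which overlapped (log2 fold change -0.32, SE 0.174, adjusted p = 0.178). The plastid glucanotransferase DPE1, which recycles short chains, had 13.51, 13.73 and 12.05 FPKM in callus over the 33 named contigs of CL2693, against 29.07, 23.23 and 16.64 FPKM in leaf (log2 fold change -1.26, SE 0.253, adjusted p = 0.0105, but 0.057 and 0.0621 without callus replicates 5 and 6). Taken whole, CL2693 was called higher in callus, with 145.5, 169.4 and 154.7 FPKM in callus and 35.59, 28.67 and 85.65 FPKM in leaf (log2 fold change 1.05, SE 0.244, adjusted p = 0.0168). That rise came from Contig30, named after the stem-specific protein TSJT1, which had 131.0, 154.7 and 142.2 FPKM in callus and 2.05, 2.30 and 68.38 FPKM in leaf.

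**Figure D4:**
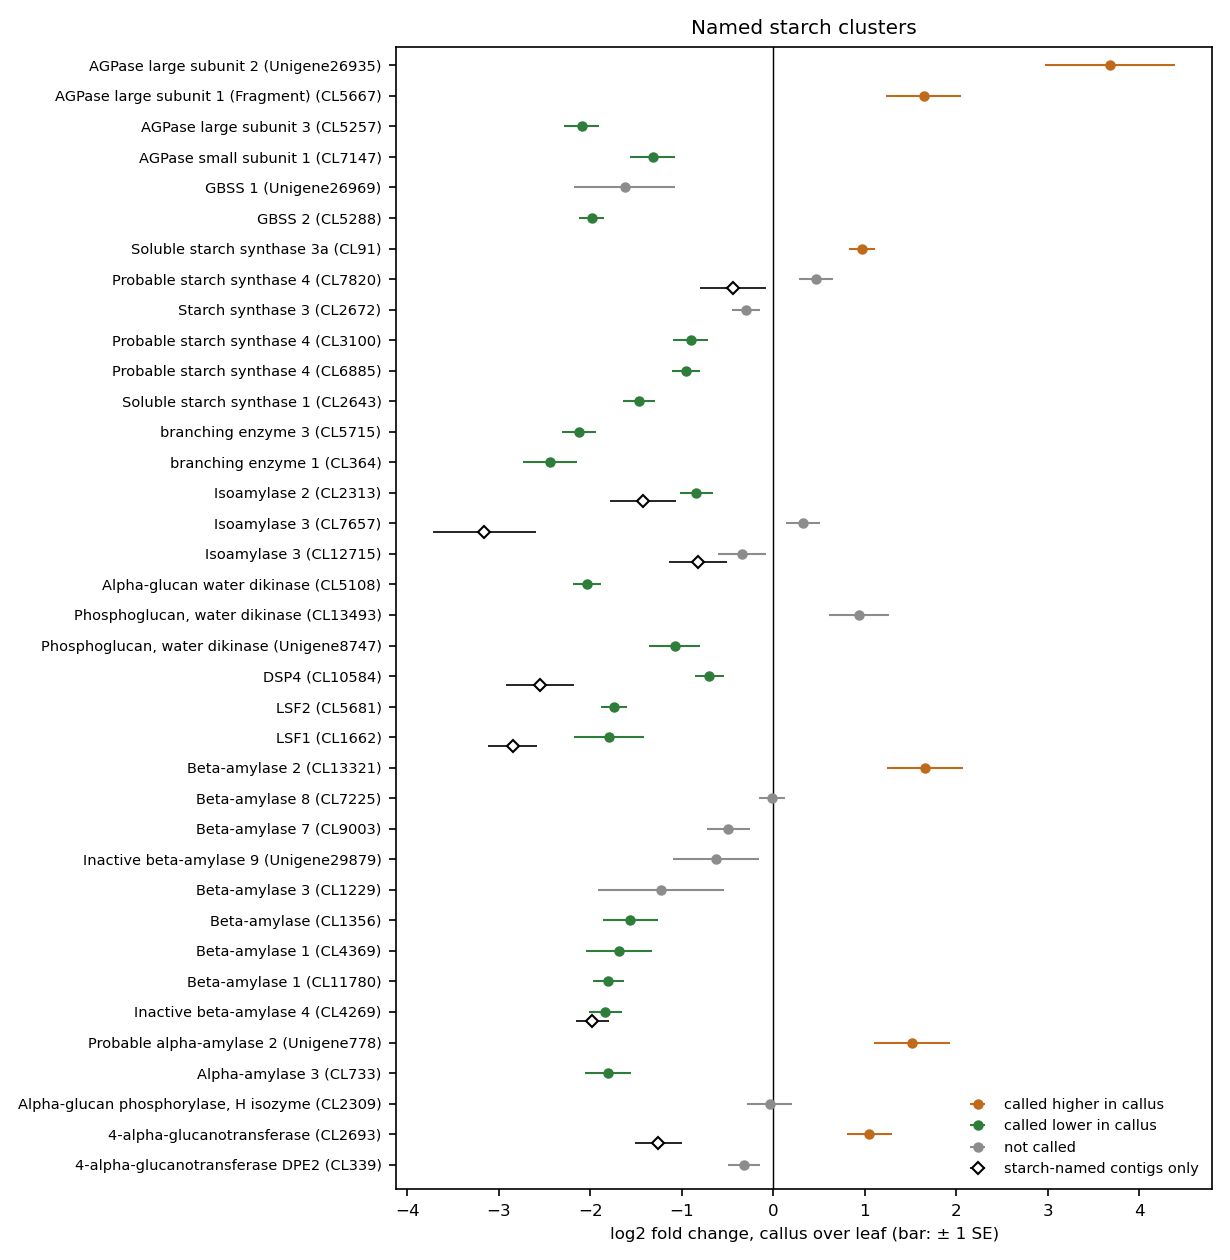
Log2 fold change of callus over leaf with 1 SE for 37 named clusters, ordered by enzyme; filled circles sum all contigs of a cluster and are coloured by their call, and open diamonds sum the starch-named contigs of clusters that hold other proteins. The 6 named clusters with a fitted value beyond 5 are not drawn. DPE1 (CL2693) is right of 0 as a whole cluster, at 1.05, and left of 0 over its named contigs, at -1.26.

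Among the 79 clusters that the rule did not name, none averaged above 8.98 FPKM, and 42 could be tested. Of these 3 were called higher and 13 lower, where 22.0% and 20.8% of all clusters tested were called. Besides CL1194, the rises were Unigene509 (LSF1) and Unigene4095 (a phosphoglucan, water dikinase), both chosen for naming after their values were seen. Unigene4095 had 0.42, 0.28 and 0.48 FPKM in callus and 0.03, 0.00 and 0.00 FPKM in leaf (adjusted p = 0.0119, and 0.0543 without callus replicate 6). Unigene509 had 1.52, 1.11 and 1.39 FPKM in callus and 0.37, 0.23 and 0.65 FPKM in leaf (adjusted p = 0.0453, and between 0.0892 and 0.121 without any library but leaf replicate 3). Of the named rises and falls at the largest fitted change, Unigene33949, a DSP4-named unigene, had 0.08, 0.00 and 0.00 FPKM in callus and 1.24, 5.64 and 3.21 FPKM in leaf (adjusted p = 0.0072).

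Other proteins of plastid starch and maltose metabolism, which the names above do not take in, were read from the same fit. Of 97 clusters 59 were tested, and 10 were called higher and 17 lower, where 22.0% and 20.8% of all clusters tested were called. Their median log2 fold change was -0.50, against -0.05 over all clusters. The glucose 6-phosphate/phosphate translocators, which import glucose 6-phosphate into plastids, were called higher in 3 of 3 tested clusters. Calls of these other proteins with a library left out are not given. Unigene26302 was uneven, with 103.1, 7.52 and 14.75 FPKM in callus and 0.07, 0.11 and 0.62 FPKM in leaf (adjusted p = 0.0116). Unigene32658 was near the threshold (adjusted p = 0.0413). Translocator 2 in CL8973 had 146.0, 106.2 and 115.8 FPKM in callus, against 25.58, 24.06 and 38.63 FPKM in leaf (log2 fold change 2.00, SE 0.278, adjusted p = 0.0033). The plastid glucose 6-phosphate isomerase of CL3186, which links this sugar phosphate to fructose 6-phosphate, was also higher, with 57.17, 40.58 and 50.70 FPKM in callus and 17.91, 21.37 and 23.65 FPKM in leaf (log2 fold change 1.00, SE 0.183, adjusted p = 0.008). Among 10 tested clusters of triose phosphate/phosphate translocators, 1 was called higher and 2 lower. Among 26 tested clusters of plastid glucose transporters, 3 were called higher and 6 lower. For plastid phosphoglucomutase, 1 of 2 tested clusters was called lower and 0 higher.

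Lower in callus were the maltose exporters, in 2 of 2 tested clusters, and the plastid ATP/ADP carriers, in 3 of 4. The maltose exporter cluster CL1415, a relative of MEX1, had 18.09, 23.04 and 24.67 FPKM in callus and 32.22, 37.68 and 46.05 FPKM in leaf (log2 fold change -1.01, SE 0.185, adjusted p = 0.0075). That cluster also holds contigs with other names. The most abundant ATP/ADP carrier, Unigene17272, was the one not called, with 61.82, 73.61 and 72.67 FPKM in callus and 84.04, 129.3 and 84.63 FPKM in leaf (log2 fold change -0.62, SE 0.221, adjusted p = 0.0631). The least abundant carrier, Unigene42639, had 4.31, 1.06 and 1.16 FPKM in callus and 26.44, 39.34 and 33.33 FPKM in leaf (log2 fold change -3.98, SE 0.672, adjusted p = 0.006). Pullulanase 1, the limit dextrinase, had 17.00, 22.12 and 21.78 FPKM in callus and 82.90, 71.74 and 67.25 FPKM in leaf (log2 fold change -1.59, SE 0.137, adjusted p = 0.001). The proteins that target others to starch, with PTST and its homologs, did not share one direction. Of their 6 tested clusters 2 were called lower and 1 higher, and 3 were not called. PTST, which brings granule-bound starch synthase to the granule in Arabidopsis, had 5.57, 6.57 and 8.08 FPKM in callus and 38.20, 31.96 and 27.47 FPKM in leaf in CL9983 (log2 fold change -1.70, SE 0.189, adjusted p = 0.0018). The cluster called higher was Unigene36594, named after PTST homolog 3 (adjusted p = 0.0274). Of the plastid-type phosphorylases 1 of 4 tested clusters was called. The most abundant, CL1, was not called, with 16.06, 13.13 and 15.82 FPKM in callus and 12.14, 10.24 and 9.19 FPKM in leaf (log2 fold change 0.17, SE 0.140, adjusted p = 0.352). The L-2 type in Unigene16706 was called higher, with 13.26, 8.69 and 12.04 FPKM in callus and 4.46, 3.46 and 3.11 FPKM in leaf (log2 fold change 1.54, SE 0.254, adjusted p = 0.005).

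**Figure D5:**
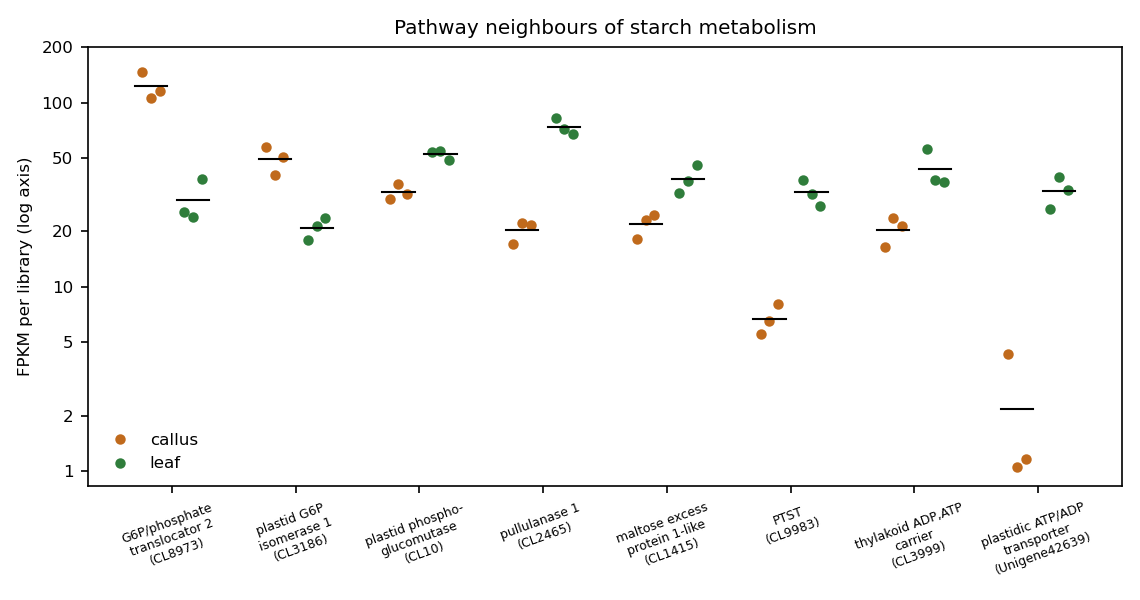
FPKM of 8 clusters of plastid sugar phosphate, maltose and adenylate metabolism in each library, on a log axis, with callus (orange) left of leaf (green) and a bar at the mean of the 3 libraries. The glucose 6-phosphate translocator and the plastid isomerase are higher in every callus library than in any leaf library, and the other 6 are lower. The 8 are a selection of called clusters. Not drawn are the most abundant ATP/ADP carrier, Unigene17272, which was not called, and other called rises such as CL13663 (a triose phosphate translocator) and Unigene16706.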

How the data were processed

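RNA of 3 callus and 3 leaf samples was sequenced, and the authors filtered reads, assembled unigenes with Trinity, reduced redundancy with TGICL, aligned reads with Bowtie2 2.2.5 and estimated expression with RSEM 1.2.8, the last 2 versions also standing in the submitters' processing notes. The deposited expected counts are estimated fragment numbers per unigene, without normalization. The deposited FPKM values are the same estimates scaled by RSEM for contig length and depth, and the deposited TPM values were not used. The deposited annotation table also holds the authors' own fold changes, p-values and averages per tissue, which were not used. No sequences or genome coordinates were used here.

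Expected counts were summed per cluster or enzyme group, rounded to whole numbers and tested in edgeR 4.0.16 (R 4.3.3) with TMM scaling, filterByExpr and the default quasi-likelihood fit, and p-values were adjusted by Benjamini-Hochberg over all features tested. The common biological coefficient of variation was 0.537 for clusters. DESeq2 1.42.0, limma 3.58.1 on log2(FPKM + 0.01) and log2(FPKM + 1) for features above 0 in at least 3 libraries, DESeq2 size factors, no filter, robust and non-legacy fits, starch-named contigs only, Arachis unigenes left out, each library left out and a stricter threshold were alternatives. A fit without all legume-matching unigenes, and those on starch-named contigs with libraries left out, were added after the data were seen. Because long contigs weigh more in summed counts than in summed FPKM, the fitted fold change can differ from the ratio of FPKM.

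The fit was tested on simulated counts, drawn with less spread between libraries than these data have. Depth was between 17963458 and 19444638 expected counts a library, and 85 of 122 clusters passed filterByExpr.

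Clusters named in the text, other than those said to be chosen or described after their values were seen, are the most abundant of each enzyme group, every cluster with a mean of at least 10 FPKM, and the 5 largest called rises and falls, counting only clusters that reached 2 FPKM in callus or leaf. A cluster is labelled by the SwissProt name of its most abundant member contig. Members, enzyme groups and neighbour lists were chosen with earlier results of these data known. Python 3.11.15 with pandas 2.3.3 and numpy 2.4.6 was used for tables.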

Additional observations from a re-analysis of the deposited data

How the results depend on the processing

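No paired analysis was possible because callus replicates 4, 5 and 6 and leaf replicates 1, 2 and 3 share no number. At an adjusted p of 0.001 with a 2-fold change, 0 clusters rose and 4 fell, 0 unigenes rose and 0 fell, and 0 enzyme groups fell. For unigenes DESeq2 gave 21 higher and 100 lower (15.6% and 16.1% of all unigenes it tested), limma on log2(FPKM + 1) gave 20 higher and 74 lower, and no filter gave 9 higher and 35 lower. With a library left out, edgeR called between 5 and 12 clusters higher and between 17 and 39 lower. For unigenes it called between 0 and 26 higher and between 2 and 64 lower. Between 2 and 10 enzyme groups were called lower. The lowest of these counts came without callus replicate 6. Shares over all features are not given for limma, for no filter or for a library left out. Those counts show how the calls shifted, not an excess over all features. The direction of the H-type phosphorylase CL2309 turned with DESeq2 (log2 fold change 0.072), no filter (0.11) and limma at both pseudocounts (0.12 and 0.12), and ranged between -0.26 and 0.22 with a library left out. The BAM8 cluster CL7225 turned with DESeq2 size factors (0.021), DESeq2 (0.097), no filter (0.13) and limma (0.050 and 0.047), and ranged between -0.052 and 0.10 with a library left out. The phosphorylase group ranged between -0.18 and 0.26. For these the cause was not tested. With starch-named contigs only, CL2693 turned to -1.26, CL7657 to -3.16 and CL7820 to -0.44, because the other contigs of these clusters were left out. Over the single clusters and groups, 757 alternatives kept direction and call, 65 lost and 13 gained the call, and 20 turned direction. The 6 libraries allow no exact permutation test of 3 against 3 below a p of 0.1, so each p rests on the fit across features.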

Other observations

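The 36 starch-named unigenes left out for their peanut match summed to 0.29, 0.04 and 0.05 FPKM in callus, against 40.85, 1.02 and 33.88 FPKM in leaf. In leaf replicate 1, 31 of them were above 0. The level of leaf replicate 3 was that of a single contig, Contig13 of the AGPase cluster CL5257. Another 5 members, kept by the rule, had their best match in a different legume and summed to 1.02, 0.98 and 0.94 FPKM in callus, against 12.37, 1.57 and 1.40 FPKM in leaf. Without all legume-matching unigenes, 10 clusters were called higher and 37 lower, as with them.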
